A study of Mus musculus with 20 samples.

Results

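The genes described here are targets of the transcription factor p53 together with the cyclin-dependent kinase inhibitors of the Cdkn2a/Cdkn2b locus. They were taken by symbol from a list of 10: Cdkn1a, Mdm2, Phlda3, Trp53inp1, Ccng1, Sesn2, Eda2r, Gdf15, Cdkn2a and Cdkn2b. The platform annotation named 9 of them, each on 1 row, among 19504 named genes, and Gdf15 was not analysed here. The study hybridised 20 RNA samples of mouse melanomas to microarrays, and each value is a log2 expression level, on which a difference of 1 is a doubling of the signal. All animals carried Tyr::CreERT2, a tamoxifen-activated Cre recombinase driven by the tyrosinase promoter of melanocytes, and the allele BrafCA/CA, from which Cre releases the oncogene BrafV600E. Animals named B had no further engineered allele, and animals named B;p38α also carried p38αlox/lox, so that Cre deletes the gene of the stress kinase p38α (Mapk14). Every pup of both genotypes was painted with 4-hydroxytamoxifen (5 mg/ml) on the skin when 2.5 and again when 3.5 days old, and irradiated once with UVB (6.24 kJ per square meter) at the latter age. Their age when tumors were taken is not stated beyond endpoint size. Complete tumors gave 5 samples of B and 3 of B;p38α. RNA was also taken from CD45+ cells, the fraction selected as leukocytes with magnetic beads (3 and 3). The CD45- cells were the fraction left over, labeled tumor and stroma (3 and 3). Cre is driven in melanocytes, so leukocytes and stroma of B;p38α tumors keep p38α by design.

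The protein p53 is held low by Mdm2, an E3 ubiquitin ligase that marks it for destruction, and rises after DNA damage such as that from ultraviolet light or after an oncogene is switched on. It then activates genes that stop the cell cycle, feed back on p53 itself or prepare cell death. BRAF V600E in melanocytes is known to induce senescence, a lasting arrest in which p16Ink4a and p19Arf, both encoded by Cdkn2a, and p15Ink4b, encoded by Cdkn2b, take part. The single Cdkn2a row cannot tell p16Ink4a from p19Arf.

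Mapk14 itself, the deleted gene, was 10.06 ± 0.11 (SD, n = 5) in B and 9.79 ± 0.20 (n = 3) in B;p38α complete tumors. In CD45+ cells it was 10.39 ± 0.08 and 10.20 ± 0.21, and in CD45- cells 9.79 ± 0.23 and 9.64 ± 0.14 (n = 3 each). None of these differences passed the test (limma, adjusted p 0.807, 0.672 and 0.803), and whether the probes of this row lie in the deleted exons is not known here, so it does not check the labels. The labels name biological replicates but tie none to an animal, and p-values thus rest on a spread between samples that may be technical in part. Samples of different compartments may also come from the same animal, which the main fits across compartments did not take into account. The mean level of 6 leukocyte markers separated the sorted fractions, at 10.27 to 11.10 on the CD45+ and 6.12 to 8.98 on the CD45- arrays. The fibroblast gene Col1a1 stood high in both, at 11.94 in CD45+ and 12.52 in CD45- cells. All 5 endothelial markers were higher in CD45+ than in CD45- cells. Of these, 3 passed in limma (Kdr 1.79, Pecam1 1.71 and Cdh5 1.18), where 12.2% of all genes did. Values given for CD45+ cells are thus those of the fraction as collected, not of leukocytes alone. Of 7 melanocyte markers, Pmel, Tyr and Tyrp1 lay under the 30th percentile of all genes in mean level. In the 3 compartments Sox10 was at 10.25 to 11.20, Mitf at 8.08 to 8.86, Mlana at 5.42 to 7.16 and Dct at 5.41 to 6.23. Between the sorted fractions Sox10 passed as lower (-0.95, limma adjusted p 0.022) and Mitf as higher (0.78, 0.0314) in CD45+ cells, and no other of the 7 passed. The array of B CD45- replicate 1 had the narrowest interquartile range, 2.95, where the others had 3.41 to 3.89. In tissue RNA of this kind, fewer cells of a type and less RNA per cell cannot be told apart.

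Direct targets of p53 carry its response element, a pair of like half-sites, and the sequences show which genes here hold one near a start. RefSeq promoter windows of GRCm38.p6, from 250 bases before to 50 after a transcription start, covered 8 of the 9 measured genes in 10 windows. Each excerpt runs 5′ to 3′ on the gene's own strand, and capitals mark the match to the p53 consensus. The Cdkn1a excerpt lies on the plus strand at chr17:29090908-29090967, the Ccng1 excerpt on the minus strand at chr11:40755442-40755501 and the Mdm2 excerpt on the minus strand at chr10:117710915-117710964.
Cdkn1a: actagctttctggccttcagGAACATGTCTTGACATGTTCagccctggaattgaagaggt
Ccng1: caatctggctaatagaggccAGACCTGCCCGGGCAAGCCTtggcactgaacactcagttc
Mdm2: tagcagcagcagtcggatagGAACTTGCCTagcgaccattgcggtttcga

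The Cdkn1a match begins 51 bases before the more upstream of its 2 starts and spans 20 bases with 1 mismatch to the consensus, its first 10 bases being an exact half-site. Another exact half-site begins 73 bases before that start and lies partly outside the excerpt. The Ccng1 match begins 195 bases before the start and also spans 20 bases with 1 mismatch, with the exact half-site in its latter 10 bases. Mdm2 holds a single half-site 186 bases before its start. The half-site motif, which reads alike on both strands, was found in the windows of these 3 genes and in 8.36% of 32851 windows genome-wide. A 20-base site with at most 1 mismatch, an allowance set after the windows had been seen, was in 2 of the 10 windows and in 0.0883% of all windows. The windows of Phlda3, Sesn2, Eda2r, Cdkn2a and Cdkn2b, and the downstream start of Cdkn1a, did not hold these letters, which describes these windows only.

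**Figure D1:**
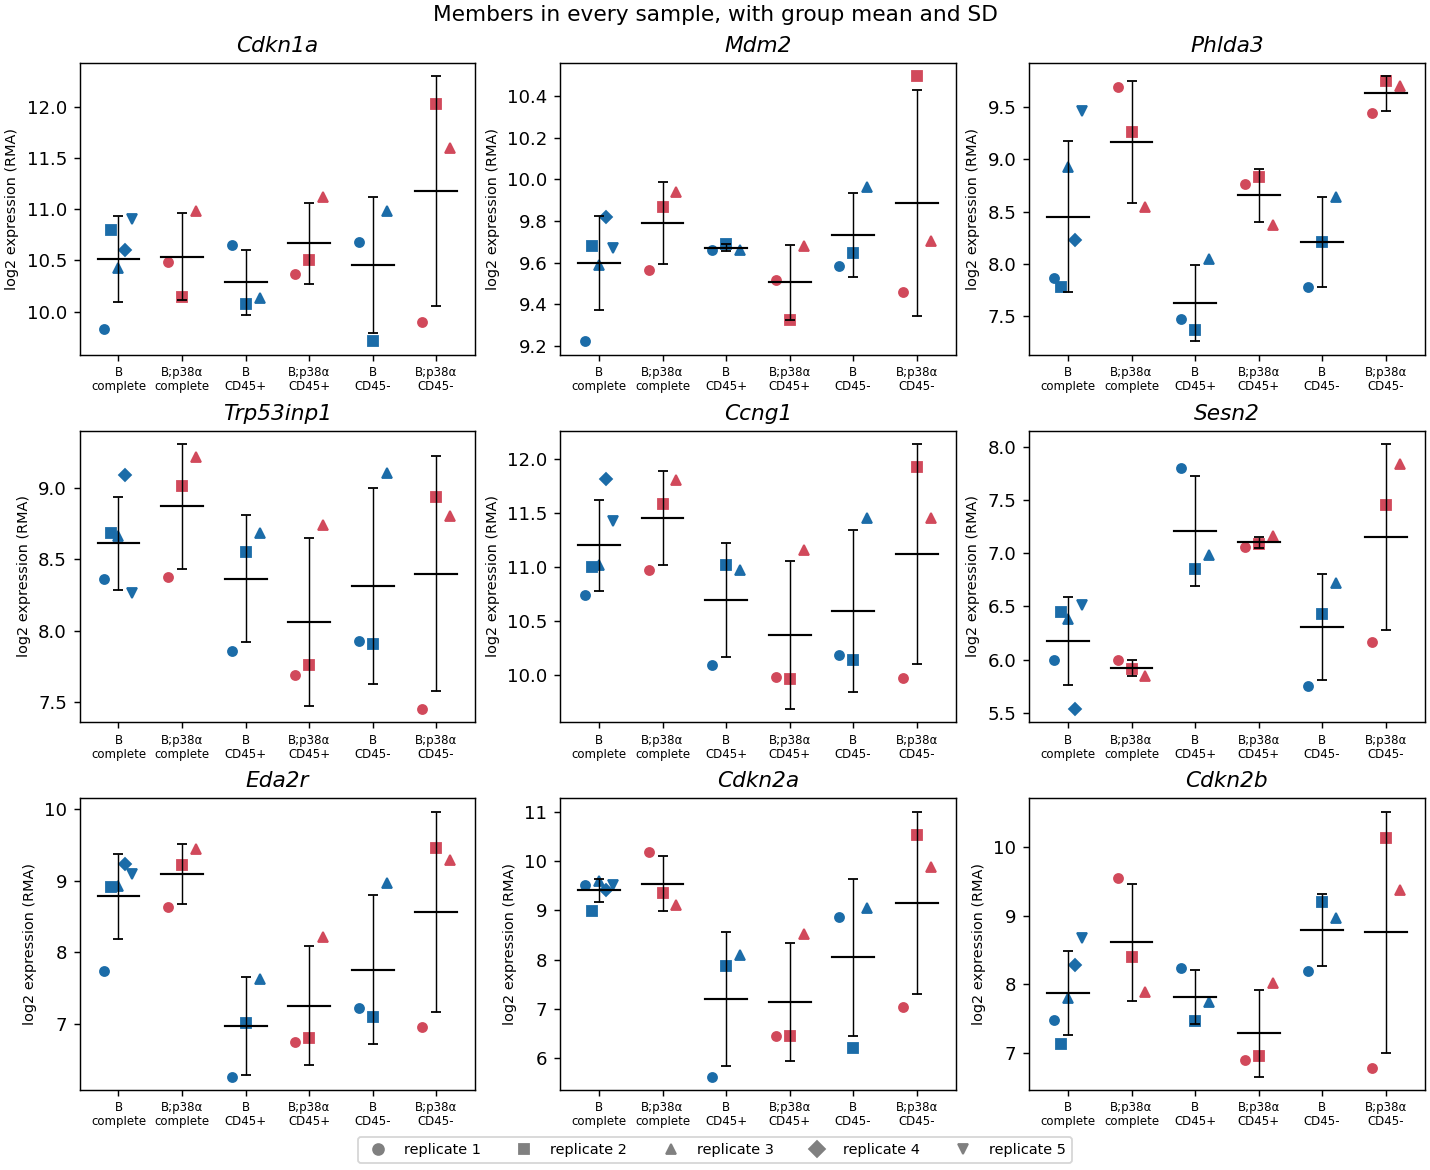
Log2 expression (vertical axis, 1 panel per gene with its own range) of the 9 measured genes on each of the 20 arrays, by genotype and compartment; symbols mark the replicate number, long bars the group mean and whiskers the SD. In Phlda3 all 3 B;p38α arrays lie above all 3 B arrays in CD45+ and in CD45- cells, while in most other panels the 3 B;p38α CD45- arrays are spread widely, with replicate 1 lowest.

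The first question of the study was what loss of melanocytic p38α changes within each compartment. Among these genes the clearest genotype difference was that of Phlda3, whose product competes for membrane lipid with the survival kinase Akt and restrains it. In CD45- cells Phlda3 was 7.78, 8.21 and 8.64 in B and 9.44, 9.75 and 9.70 in B;p38α tumors. In CD45+ cells it was 7.47, 7.37 and 8.04 against 8.76, 8.83 and 8.37, where the first 2 B;p38α arrays were the most alike pair within any group (r = 0.99 over all genes). In complete tumors Phlda3 was 7.87, 7.78, 8.92, 8.23 and 9.46 against 9.69, 9.26 and 8.54. The genotypes were apart in both sorted fractions and overlapped in complete tumors, where B replicates 3 and 5 lay within the range of the B;p38α samples.

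As B;p38α minus B, the Phlda3 difference was 1.42 (SE 0.27) in CD45-, 1.03 (SE 0.24) in CD45+ cells and 0.71 (SE 0.41) in complete tumors. None passed the threshold in limma across all genes (adjusted p 0.675, 0.395 and 0.8). With all 20 arrays in 1 fit and compartment as a covariate it was 1.03 (SE 0.21), and the limma adjusted p of 0.0773 again missed the threshold. That fit took the 20 arrays as independent, although samples of different compartments may share an animal. By p-value Phlda3 ranked 27 of 19504 genes there, and 0.79% of genes had a larger absolute difference. The difference was positive under each of the alternatives run, from 0.89 to 1.16, with adjusted p from 0.00928 to 0.174. It passed without B complete replicate 5 (1.13, adjusted p 0.00928), without B;p38α complete replicate 3 (1.16, 0.0264) and without B;p38α CD45+ replicate 3 (1.06, 0.0391). The interaction between CD45+ and CD45- cells was -0.39 (SE 0.36, adjusted p 1).

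Other measurements moved with genotype in the same fractions. All 6 leukocyte markers were lower in B;p38α CD45- cells, with arrays apart, as were 1046 of 19504 genes. The mean level of these markers was 6.12 to 8.07 there and 8.60 to 8.98 in B CD45- cells. The 6 measured macrophage markers had a median difference of -2.02, and their mean level was 6.01 to 9.41 against 9.44 to 10.16. Phlda3 itself was lower in CD45+ than in CD45- cells (difference -0.78), and the part of leukocyte content in its CD45- difference was not tested. The leukocyte level in CD45+ cells was 10.81 to 10.92 in B and 10.27 to 11.10 in B;p38α. Y-linked genes were also lower in B;p38α in each compartment, without passing. Their median difference was -3.29 in CD45+ cells, -2.47 in complete tumors and -1.02 in CD45- cells, and the sex of the animals is not stated in the labels. Their mean level was 2.76 to 9.29 in B and 2.99 to 3.85 in B;p38α complete tumors. In CD45+ cells it was 4.30 to 8.67 against 2.75 to 3.23, and in CD45- cells 2.79 to 8.60 against 3.30 to 8.81. All 3 Y-linked genes had CD45+ groups without overlap, as had 1434 of 19504 genes with B;p38α lower. With the mean of the Y-linked genes as a covariate, the Phlda3 difference was 0.98 (limma adjusted p 0.189) in CD45+ cells, 1.39 (0.821) in CD45- cells and 0.89 (0.157) over all compartments.

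The remaining genes gave no such separation. In complete tumors 0 of the 9 measured genes passed in limma, where 0% of all genes did. There 0 of 9 had an unadjusted p under 0.05 (6.61% of all genes), 0 of 9 had groups without overlap (4.46%) and 8 of 9 differences were positive, against 48.2% of all genes. In CD45+ cells 0 of 9 passed (0% of all genes), 1 of 9 had an unadjusted p under 0.05 (10.8% of all genes), and 3 of 9 differences were positive (50.4%). In CD45- cells 0 of 9 passed (0.0103% of all genes), 1 of 9 had an unadjusted p under 0.05 (6.76%), and 8 of 9 were positive (55.8%). The single gene at the unadjusted threshold was Phlda3 in both. It was also the 1 gene of 9 whose groups did not overlap with B;p38α higher, in CD45+ cells (9.16% of all genes) and in CD45- cells (10.6%). Over all compartments 0 of 9 passed (0.082% of all genes), Phlda3 alone had an unadjusted p under 0.05 (15% of all genes), and all 9 differences were positive (53.1% of all genes), with a median of 0.16 against 0.02 for all genes. Several of these signs rest on small values. With 1 array left out the difference over all compartments fell to as low as -0.014 for Mdm2, -0.046 for Trp53inp1, -0.0071 for Sesn2 and -0.10 for Cdkn2b, and Trp53inp1 was below 0 in 9 of the 20 such fits. Array weights also gave values below 0 for Trp53inp1 (-0.075) and Cdkn2b (-0.064), repeated quantile normalization for Trp53inp1 (-0.031), and leaving out the arrays of narrowest range for Sesn2 (-0.031). Within compartments the sign turned in at least 1 alternative for Cdkn1a and Cdkn2a in complete tumors, for Sesn2, Eda2r and Cdkn2a in CD45+ cells, and for Mdm2, Trp53inp1 and Cdkn2b in CD45- cells. The members were chosen with earlier results known, so these counts are a description.

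Cdkn1a encodes p21, the inhibitor of cyclin-dependent kinases through which p53 halts the cycle. Its level was 9.83, 10.80, 10.43, 10.60 and 10.91 in B and 10.48, 10.14 and 10.98 in B;p38α complete tumors. Its CD45+ values were 10.65, 10.07 and 10.13 against 10.37, 10.51 and 11.12. The CD45- values were 10.68, 9.71 and 10.98 against 9.90, 12.03 and 11.60. Cdkn1a was thus highest on 2 of the B;p38α CD45- arrays and overlapped between the genotypes in every compartment. Its differences were 0.02 (SE 0.27, adjusted p 0.994), 0.38 (SE 0.26, 0.572) and 0.72 (SE 0.60, 0.702) in complete tumors, then CD45+ and then CD45- cells.

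Cdkn2b, which encodes the CDK4 and CDK6 inhibitor p15Ink4b, was 7.47, 7.13, 7.81, 8.28 and 8.68 in B and 9.56, 8.40 and 7.88 in B;p38α complete tumors. Among CD45+ arrays it was 8.24, 7.46 and 7.74 against 6.89, 6.96 and 8.02. Among CD45- arrays it was 8.20, 9.21 and 8.97 against 6.77, 10.14 and 9.38. The genotypes overlapped in each compartment, with differences of 0.74 (SE 0.42), -0.53 (SE 0.35) and -0.03 (SE 0.82). Its neighbor Cdkn2a had differences of 0.14 (SE 0.25), -0.06 (SE 0.79) and 1.10 (SE 1.08), and neither gene passed in any of the 3 (limma, adjusted p from 0.562 to 0.991).

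Genes that feed back on p53 or act beside it did not pass the threshold either. Mdm2 ranged from 9.22 to 10.50 over all arrays, and its genotype differences in complete tumors, CD45+ and CD45- cells were 0.19, -0.16 and 0.16. Ccng1, a cyclin that recruits a phosphatase to Mdm2, differed by 0.25, -0.32 and 0.53, and Trp53inp1, a nuclear cofactor of p53 with a role in autophagy, by 0.26, -0.30 and 0.09. Sesn2, a stress sensor that restrains the growth kinase mTORC1, differed by -0.26, -0.11 and 0.85. Eda2r, a receptor of the tumor necrosis factor family that binds ectodysplasin A2, differed by 0.32, 0.29 and 0.81. In CD45- cells the spread within B;p38α was large: replicate 1 was the lowest of its 3 arrays in 9 of 9 genes, and on average 1.19 below the group mean. Without it the CD45- differences were 1.36 for Cdkn1a, 2.16 for Cdkn2a, 1.61 for Eda2r, 1.35 for Sesn2 and 1.10 for Ccng1, and for Phlda3 1.51. Those of Cdkn2b, Trp53inp1 and Mdm2 moved to 0.96 (from -0.03), 0.56 and 0.37. None of the 9 passed then either (limma, adjusted p 0.916 in each). Leaving out the lowest array of B;p38α raises each difference by construction, whereas leaving out another array could lower it. The lowest differences so reached were 0.294 for Cdkn1a, 0.185 for Cdkn2a, 0.362 for Eda2r, 0.507 for Sesn2 and 0.123 for Ccng1. Those of Mdm2, Trp53inp1 and Cdkn2b reached -0.1499, -0.183 and -0.718, while Phlda3 stayed above 1.

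**Figure D2:**
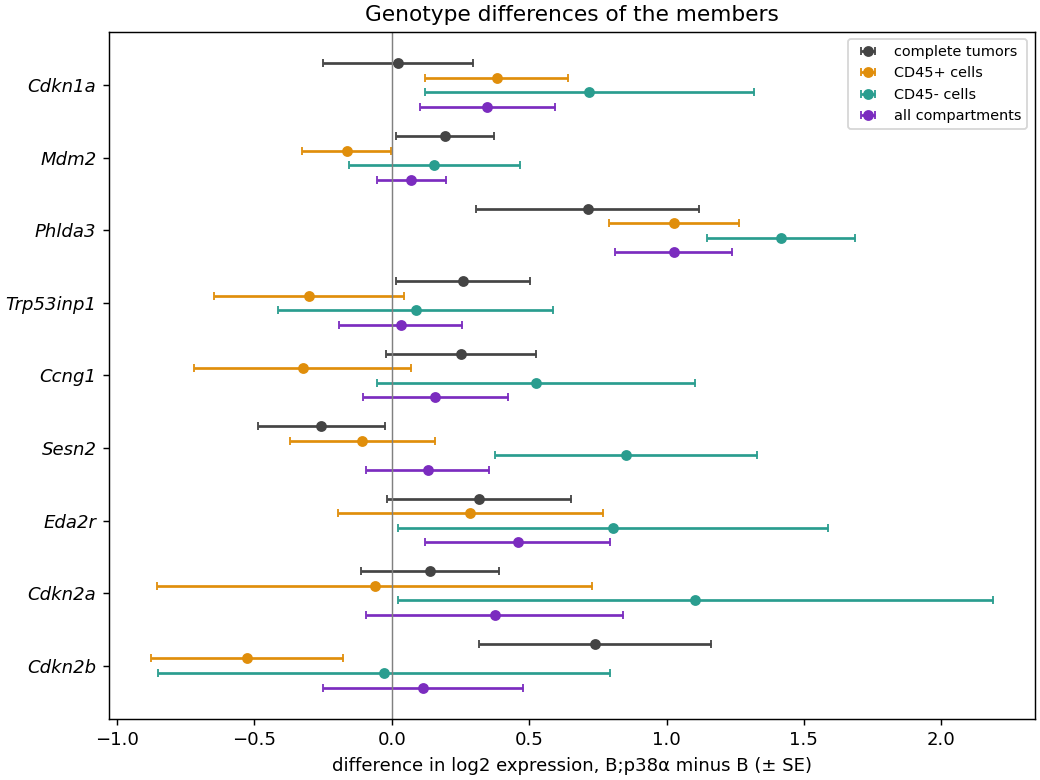
Differences in log2 expression between the genotypes (horizontal axis, B;p38α minus B) of the 9 measured genes in complete tumors, CD45+ cells, CD45- cells and over all compartments; points are fitted differences and whiskers their SE. Phlda3 lies to the right of 0 in all 4, from 0.71 to 1.42, and no point passed an adjusted p of 0.05.

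Other genes of the pathway were followed through lists. Of 23 other measured p53 targets, 0 passed in any of the 4 genotype comparisons, and 13, 13, 15 and 14 had positive differences in complete tumors, CD45+ cells, CD45- cells and over all compartments. Of all genes 48.2%, 50.4%, 55.8% and 53.1% were positive in these. The largest differences in complete tumors were those of Steap3, an iron reductase (-1.02, adjusted p 0.707), and Pmaip1, the death gene Noxa (0.94, 0.726). In CD45+ cells they were Perp (-0.79, 0.561), a desmosome gene, and Rrm2b (-0.65, 0.412), which supplies nucleotides for repair. In CD45- cells they were the RNA-binding gene Zmat3 (0.75) and the nuclease Aen (0.74), both with an adjusted p of 0.675. Over all compartments they were Perp (-0.71, 0.496) and Pmaip1 (0.57, 0.252). None of the 15 measured genes of p53 and its regulators passed either. There Trp63, a p53 relative of basal keratinocytes, had the largest difference in all 4 comparisons (-0.94, -1.24, -0.89 and -1.02; adjusted p 0.852, 0.514, 0.675 and 0.272), beside Atm (0.54) in complete tumors, Cbx7 (-0.37 and -0.53) in the sorted fractions and Trp53bp1 (0.23) over all.

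Cyclins, their kinases and the other inhibitors (17 measured) had 0 passing as well. E2f1, a driver of S-phase entry, differed by 1.02 in CD45+ cells (adjusted p 0.42), 0.80 in CD45- cells (0.675) and -0.66 in complete tumors (0.733), and Cdkn2c, the inhibitor p18, by 1.17 (0.449) in CD45+ cells. The others named by size were Ccnd3 (0.44) in complete tumors, Cdk6 (0.72) in CD45- cells, and Cdk6 (0.43) and Cdk4 (0.31) over all compartments. Among 13 measured genes of the senescence secretome and nucleus, the chemokine Cxcl1 (1.89, adjusted p 0.195) and the cytokine Il6 (1.43, 0.335) were the farthest apart in CD45+ cells, with no overlap of the arrays. In CD45- cells the farthest were the collagenase Mmp13 (2.00, 0.675) and Il1b (-1.78, 0.675), in complete tumors Il1b (0.75) and Mmp3 (-0.64), and over all compartments Cxcl1 (0.76) and Plaur (0.68). Of 12 genes of the integrated stress response, which also drives Sesn2, none passed. Slc7a11, the cystine importer, differed by -2.06 (0.675) in CD45-, by -0.56 (0.755) in complete tumors and by -0.89 (0.185) over all compartments. The others were Vldlr (-0.55) in complete tumors, Ppp1r15a (0.91) and Ddit4 (0.82) in CD45+ cells, Chac1 (0.71) in CD45- cells and Phgdh (0.52) over all. All 12 measured mitosis genes were above 0 in CD45+ cells (0 passed), where Cdk1 (0.90) and Ttk (0.86) led, followed by Cdk1 (0.74) and Bub1 (0.45) in CD45- cells, Bub1b (0.35) and Bub1 (0.28) in complete tumors, and Bub1 (0.50) and Cdk1 (0.46) over all.

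The second comparison was between compartments, with each contrast averaged over the genotypes in equal parts, and the 3 contrasts share their arrays. Sesn2 was higher, and Eda2r and Cdkn2a were lower, in CD45+ cells than in complete tumors: 3 of 9 genes passed, where 25.8% of all genes did. Sesn2 was 5.997, 6.45, 6.38, 5.53 and 6.51 in B and 5.999, 5.91 and 5.85 in B;p38α complete tumors. Sesn2 in CD45+ cells was 7.80, 6.85 and 6.98 in B and 7.06, 7.09 and 7.17 in B;p38α. Sesn2 in CD45- cells was 5.75, 6.43 and 6.73 in B and 6.17, 7.45 and 7.84 in B;p38α. Every CD45+ array was above every complete tumor, with CD45- arrays on both sides, and Sesn2 was the 1 gene of 9 so placed (6% of all genes). The difference from complete tumors was 1.11 (SE 0.25, limma adjusted p 0.00296) for CD45+ cells and 0.68 (SE 0.25, adjusted p 0.0784) for CD45- cells. The latter passed without B CD45- replicate 1 (0.82, adjusted p 0.0457) or without B;p38α CD45- replicate 1 (0.93, 0.0125).

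Cdkn2a was 9.53, 8.99, 9.59, 9.42 and 9.51 in B and 10.18, 9.36 and 9.11 in B;p38α complete tumors. The CD45+ arrays gave 5.62, 7.87 and 8.10 in B and 6.45, 6.44 and 8.52 in B;p38α. The CD45- arrays gave 8.87, 6.21 and 9.06 in B and 7.04, 10.53 and 9.89 in B;p38α. All 6 CD45+ arrays lay below all 8 complete tumors, which were close to each other, while the CD45- arrays reached from near the lowest to the highest value. No other of the 9 genes lay wholly lower in CD45+ cells (1 of 9, against 4.03% of all genes). The fall in CD45+ cells relative to complete tumors was -2.31 (SE 0.58, limma adjusted p 0.00678), and relative to CD45- cells the difference was -1.43 (SE 0.75, adjusted p 0.282).

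Eda2r was 7.73, 8.90, 8.93, 9.23 and 9.09 in B and 8.63, 9.21 and 9.45 in B;p38α complete tumors. CD45+ cells had 6.26, 7.02 and 7.63 in B and 6.75, 6.80 and 8.22 in B;p38α. CD45- cells had 7.22, 7.09 and 8.96 in B and 6.95, 9.45 and 9.29 in B;p38α. Each complete tumor lay above each CD45+ array, except that B replicate 1 lay below B;p38α CD45+ replicate 3. The difference of CD45+ cells from complete tumors was -1.82 (SE 0.42, limma adjusted p 0.00396) and that from CD45- cells -1.05 (SE 0.51, 0.239).

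Between the 2 sorted fractions 1 of 9 genes passed, where 12.2% of all genes did. It was Phlda3, lower in CD45+ cells by a difference of -0.78 (SE 0.18, limma adjusted p 0.0163). The call was lost when complete tumors entered the fit (adjusted p 0.0657). Cdkn2b had the next smallest p, at -1.23 (SE 0.49, adjusted p 0.149), and passed without B;p38α CD45- replicate 1 (-1.72, 0.00349). Cdkn2a and Eda2r aside, the remaining differences were -0.34 for Cdkn1a, -0.22 for Mdm2, -0.14 for Trp53inp1, -0.32 for Ccng1 and 0.43 for Sesn2, none of which passed. Between CD45- cells and complete tumors 0 of 9 passed (limma), where 12.7% of all genes did, and 1 of 9, Sesn2, had an unadjusted p under 0.05 (28.8% of all genes). Against complete tumors, CD45+ cells also had a difference of -0.67 in Phlda3 (adjusted p 0.0668) and -0.79 in Ccng1 (0.0806). Phlda3 passed there without B complete replicate 1 (-0.74, 0.0447), B complete replicate 2 (-0.75, 0.0373) or B;p38α complete replicate 3 (-0.82, 0.0332). Ccng1 passed without B;p38α CD45+ replicate 3 (-0.99, 0.0388) or B;p38α CD45- replicate 1 (-0.79, 0.0416).

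**Figure D3:**
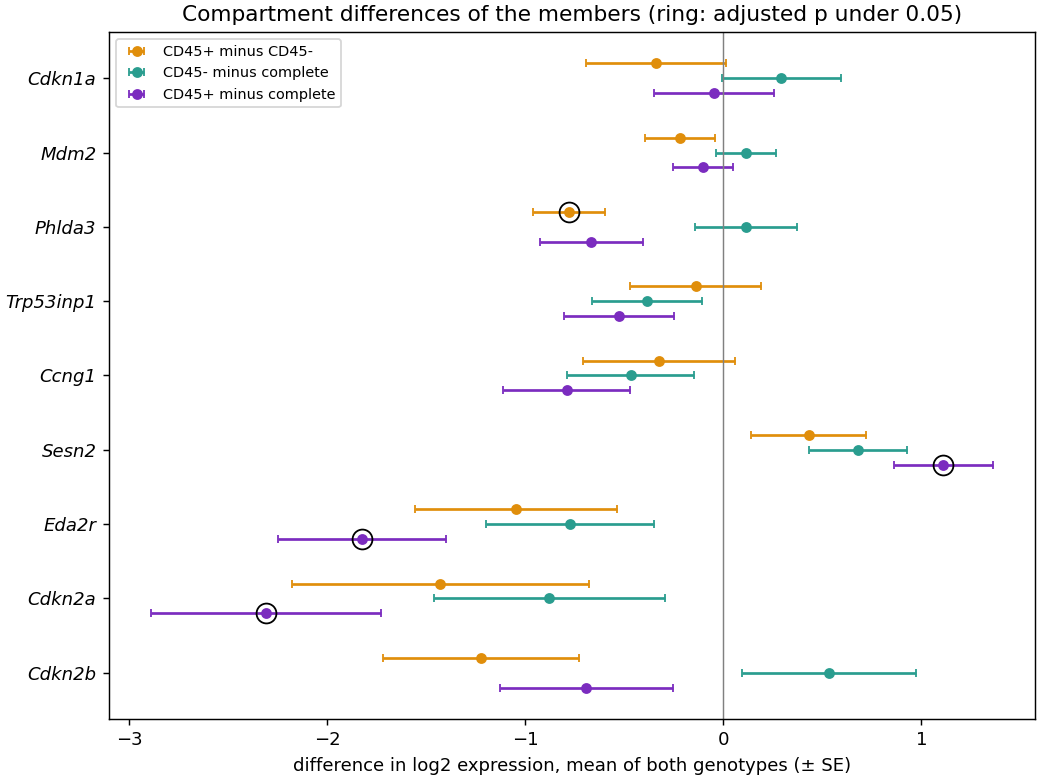
Differences in log2 expression between compartments (horizontal axis) of the 9 measured genes, averaged over the genotypes; points are fitted differences, whiskers their SE, and rings mark an adjusted p under 0.05. The 4 rings are Sesn2 (1.11), Eda2r (-1.82) and Cdkn2a (-2.31) in CD45+ cells against complete tumors and Phlda3 (-0.78) in CD45+ against CD45- cells.

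The fractions also differed from complete tumors in handling, as only the sorted samples were dissociated. All 13 listed immediate early and handling stress genes passed as higher in CD45+ cells than in complete tumors (median difference 2.30). In CD45- cells all 13 were also higher (median 1.45), and 11 passed. Of all genes, 25.8% and 12.7% passed in the respective contrasts, in either direction. The list's mean level was 8.95 in B and 8.93 in B;p38α complete tumors, 10.90 and 11.32 in CD45+ cells, and 10.36 and 10.33 in CD45- cells. All 5 skeletal muscle genes fell in both fractions (median differences -4.27 and -4.13). What part handling or lost tissue had in the higher Sesn2 and the lower Cdkn2a and Eda2r was not tested.

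Other p53 targets did not follow a single direction across compartments. In CD45+ cells relative to complete tumors 7 of 23 passed as higher and 2 as lower, where 25.8% of all genes passed in either direction. By sign alone 11 were higher and 12 lower. Pmaip1 (2.11, limma adjusted p 1.83e-05), the antiproliferative gene Btg2 (1.90, 1.51e-05) and the kinases Plk2 (1.03, 0.000244) and Plk3 (0.78, 0.0135) rose the most, and the DNA polymerase gene Polk (-0.74, 0.00499) and Aen (-0.61, 0.0372) fell. In CD45- cells relative to complete tumors 5 passed as higher, among them Btg2 (1.03), Steap3 (0.95), Gadd45a (0.78) and Plk2 (0.60). Sesn1 passed as lower there (-0.52, limma adjusted p 0.0321), and 12.7% of all genes passed in either direction. Between CD45+ and CD45- cells, where 12.2% of all genes passed, Pmaip1 (1.80), Sesn1 (1.05) and Btg2 (0.87) passed as higher in CD45+ cells. Zmat3 (-0.76) and Ei24 (-0.48) passed as lower in CD45+ than in CD45- cells. Sesn1, a relative of Sesn2, thus fell in CD45- and rose in CD45+ cells (0.54, adjusted p 0.0137) relative to complete tumors. Among p53 and its regulators, CD45+ cells had higher Hipk2 (1.04) and Cbx7 (0.72) and lower Ezh2 (-0.45), Mdm4 (-0.40) and Cop1 (-0.35) than complete tumors, and CD45- cells lower Mdm4 (-0.52) and higher Cbx7 (0.48). Between the fractions none of that list passed, and Hipk2 (0.64) and Trp63 (0.36) differed most.

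Of the cell cycle genes, Cdkn1b, the inhibitor p27, was higher (0.78, limma adjusted p 0.00538) and Ccne2 (-0.99, 0.00578) and Cdk4 (-0.67, 0.000892) were lower in CD45+ cells than in complete tumors, with E2f2 (0.49) and Rb1 (0.45) higher. Ccne2 was also lower in CD45- cells (-0.82, adjusted p 0.0336), and between the fractions Ccnd2 (-0.69) and Rb1 (0.55) passed. In the integrated stress response 4 of 12 genes passed as higher in CD45+ cells than in complete tumors, Slc7a11 (3.00), Atf3 (2.73), Ppp1r15a (2.58) and Ddit4 (0.87). Vldlr (-1.03) and Psat1 (-0.88) passed as lower, where 25.8% of all genes passed in either direction. In CD45- cells 3 passed as higher (12.7% of all genes in either direction), Ppp1r15a (1.41), Slc7a11 (0.92) and Ddit4 (0.79). Between the fractions 4 passed as higher in CD45+ cells (12.2% of all genes in either direction), Slc7a11 (2.08), Atf3 (1.91), Ppp1r15a (1.17) and Ddit3 (0.42). The secretome list, whose cytokines are also leukocyte products, had 5 of 13 genes passing as higher and 1 as lower in CD45+ cells against complete tumors. Of all genes 25.8% passed in that contrast in either direction. Il1b (3.46), Il1a (2.28), Mmp3 (-1.75) and Ccl2 (1.30) led in the list. Il1b (3.18) and Il1a (1.94) also passed between the fractions, and Igfbp3 (0.98) and Igfbp5 (0.81) in CD45- cells against complete tumors. In the mitosis list 1 of 12 passed in these 3 contrasts, Top2a in CD45+ cells against complete tumors (-0.94, limma adjusted p 0.0213), where 25.8% of all genes passed. Plk1 and Cdc20 differed most between the fractions (-0.42 and -0.33), and Plk1 and Top2a between CD45- cells and complete tumors (0.87 and -0.81), without passing.

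Some of these genes varied together from array to array within groups. Ccng1 was 10.74, 11.0003, 11.02, 11.81 and 11.42 in B and 10.97, 11.58 and 11.80 in B;p38α complete tumors. In CD45+ cells it was 10.09, 11.02 and 10.98 in B and 9.99, 9.97 and 11.16 in B;p38α. In CD45- cells it was 10.18, 10.14 and 11.46 in B and 9.98, 11.93 and 11.46 in B;p38α. Single arrays therefore differed by more than 1 within 4 of the 6 groups.

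After group means were subtracted, Pearson's r over the 20 arrays was 0.94 (Spearman 0.95) between Ccng1 and Trp53inp1, 0.95 (0.94) between Ccng1 and Eda2r and 0.93 (0.90) between Trp53inp1 and Eda2r. Without the 2 arrays farthest from the median, taken in Trp53inp1 for the first and the last pair and in Ccng1 for the other, these were 0.91, 0.92 and 0.88. Within complete tumors (n = 8) they were 0.74, 0.82 and 0.63, within CD45+ cells (n = 6) 0.99, 0.95 and 0.98, and within CD45- cells (n = 6) 0.99, 0.99 and 1.00. In each sorted group 1 array stood apart from the others in Ccng1, so r within a fraction rests on few arrays. B;p38α CD45+ replicates 1 and 2 were also the most alike pair within any group over all genes (r = 0.99). Mdm2 followed Ccng1 with r = 0.79, and Cdkn1a followed Ccng1 with r = 0.69. Without the 2 arrays farthest from the median in Mdm2 or in Cdkn1a these were 0.71 and 0.50. They were 0.87 and 0.51 within complete tumors, 0.70 and 0.23 within CD45+ cells and 0.83 and 0.90 within CD45- cells. Sesn2 (0.30) and Phlda3 (0.13) followed Ccng1 weakly. The arrays of a group share preparation and normalization, and values of 36 pairs of genes were computed, so these are descriptions without a test.

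**Figure D4:**
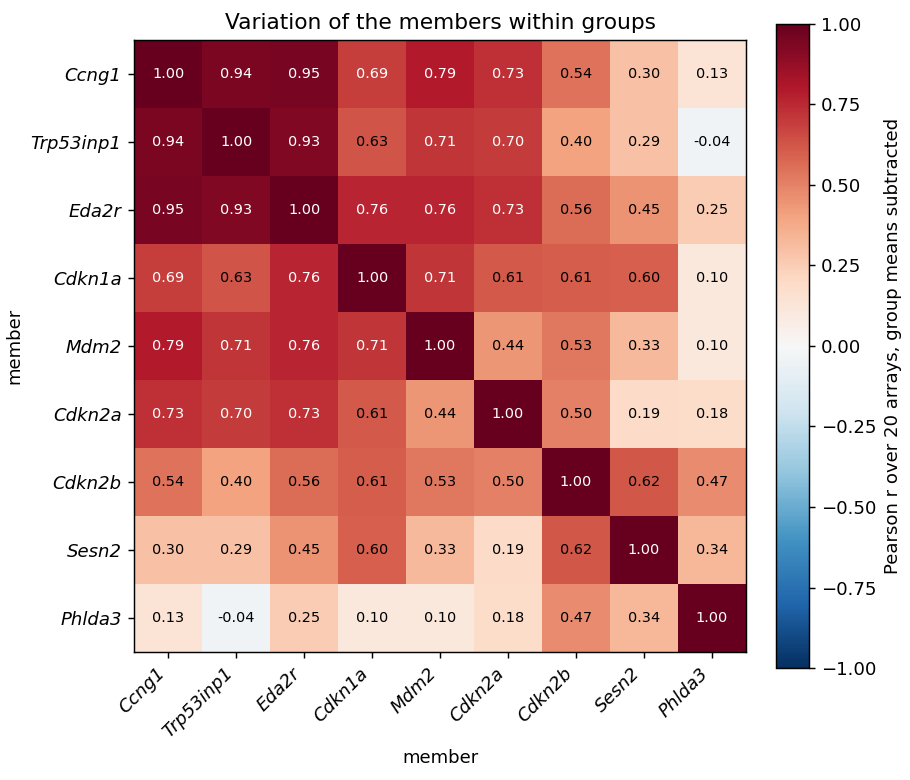
Pearson correlation between each pair of the 9 measured genes over 20 arrays after subtraction of group means; color and printed number both give r. Ccng1, Trp53inp1 and Eda2r form the block at the top left with r from 0.93 to 0.95, and Phlda3, at the lower right, reaches at most 0.47, with Cdkn2b.

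Cdkn2a followed Ccng1 in the sorted fractions, with r = 0.98 in CD45+ and 0.83 in CD45- cells, whereas r was -0.48 in complete tumors (n = 8). In complete tumors its r was 0.81 with Cdkn2b and 0.64 with Phlda3. An opposed order of Cdkn2a and Ccng1 was that of the 3 B;p38α complete tumors. Replicate 1 was highest in Phlda3, Sesn2, Cdkn2a and Cdkn2b and lowest in Mdm2, Trp53inp1, Ccng1 and Eda2r. Replicate 3 was the reverse in all 8. The 5 B complete tumors did not show it. Their Cdkn2a was 9.53 where Ccng1 was lowest (10.74) and 9.42 where Ccng1 was highest (11.81), within a range of 8.99 to 9.59. In the sorted groups 1 array often led across the genes. B CD45- replicate 3, B;p38α CD45- replicate 2 and B;p38α CD45+ replicate 3 were each the highest of their group in 8 of 9 genes.

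Beyond the 9 genes, 39.1% of the 23 other p53 targets had r above 0.5 with Ccng1 after subtraction of group means, against 7.16% of all genes. The closest were the death receptor gene Tnfrsf10b (0.85), Polk (0.84), the death receptor gene Fas (0.81), Pmaip1 (0.74) and Aen (0.68), whereas Bbc3, the death gene Puma, was at -0.39 and Gadd45a at -0.47. Marker levels moved with Ccng1 as well: r was 0.73 with the mean of the endothelial markers, 0.61 with that of the fibroblast, 0.60 with that of the T cell, 0.60 with that of the leukocyte and 0.51 with that of the macrophage markers, -0.62 with that of the integrated stress response and -0.58 with that of the mitosis genes, and their part in the shared variation was not tested. Over the 20 arrays as they stand, the genes most like Ccng1 were Trp53inp1 (0.94), Eda2r (0.91) and Pqlc3 (0.88, and 0.91 with group means subtracted). Those most like Cdkn1a were Atp10b (0.79, 0.80), Ephx1 (0.75, 0.78) and Tfr2 (0.75, 0.70), and those most like Cdkn2a were C2 (0.90, 0.90), Cilp (0.87, 0.81) and Eda2r (0.87, 0.73).

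Ordered by group mean, most neighboring groups were closer than their spread. Of 45 neighboring pairs, 5 for each gene, 43 had a gap within the larger SD of the pair. The exceptions were Phlda3 between B CD45- (8.21 ± 0.43) and B CD45+ cells (7.63 ± 0.37) and Sesn2 between B;p38α CD45+ (7.10 ± 0.06) and B CD45- cells (6.30 ± 0.50; SD, n = 3 each). Phlda3 was highest in the 3 B;p38α groups (9.63, 9.16 and 8.65 in CD45- cells, complete tumors and CD45+ cells), followed by the 3 B groups (8.45, 8.21 and 7.63 in complete tumors, CD45- and CD45+ cells). Eda2r and Cdkn2a had the order of complete tumors, CD45- and CD45+ cells, from 9.10 to 6.97 and from 9.55 to 7.14. Group means of Mdm2 spanned 9.51 to 9.89, of Cdkn1a 10.29 to 11.18, of Trp53inp1 8.06 to 8.87, of Ccng1 10.37 to 11.45, of Sesn2 5.92 to 7.21 and of Cdkn2b 7.29 to 8.79.

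The interaction, the genotype difference in CD45+ minus that in CD45- cells, was below 0 for all 9 genes with every array in the fit. Leaving out B;p38α CD45- replicate 2 turned it above 0 for Cdkn1a (0.087) and Cdkn2b (0.19), and leaving out B CD45- replicate 2 did so for Cdkn1a (0.037). With every array it ranged from -1.17 for Cdkn2a to -0.32 for Mdm2, with a median of -0.50 against -0.04 over all genes, and 0 of 9 passed in limma, as did 0% of all genes (0 of 9 and 1.95% at an unadjusted p under 0.05). The widest SE was that of Cdkn2a, at 1.499. All 9 interactions share the B;p38α CD45- group, in which replicate 1 was lowest throughout. Leaving out that array moved the interactions farther below 0, to -2.22 for Cdkn2a and -0.98 for Cdkn1a.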

How the data were processed

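The authors deposited log2 expression values; per the submitters' processing notes the tool was RMA, of unstated version, so background, normalization and probe summaries were set before deposition. A genome build for the platform is not named in these sources. Of 21244 rows, 19570 had 1 gene symbol, 0 had several and 1674 had none. The row with the highest mean was kept for each symbol, which left out 66 rows and gave 19504 genes, with values from 1.31 to 14.15. No filter on dim genes was applied. Groups came from the labels. Contrasts were fitted in R 4.3.3 with limma 3.58.1 (lmFit, eBayes). A gene was called where its p, adjusted over all genes by Benjamini and Hochberg, was under 0.05. The contrasts were genotype within each compartment (only those arrays), genotype on all 20 arrays adjusted for compartment, CD45+ against CD45- cells with their interaction (the 4 sorted groups), and each fraction against complete tumors (all 6 groups). The scripts were tested on simulated data. The number of arrays limits the precision.

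The members and the lists were chosen with earlier results of these data known, so no p-value is given for a list. Of 182 distinct listed genes 167 were measured. The naming rule took all members, Mapk14, up to 4 genes past the threshold with the largest difference per list and comparison or, where none passed, up to 2, and the 3 genes most correlated with Cdkn1a, Ccng1 and Cdkn2a over the arrays. Genes named past these limits (Polk, Aen, Sesn1, Ei24, Cop1, Rb1, Psat1 and Ddit4 between compartments, and p53 targets named for their correlation with Ccng1) were chosen after their values were seen. Sequences came from RefSeq promoter windows. Alternatives were other groups in the fit, a replicate block, a filter on genes under the 30th percentile, array weights, quantile normalization repeated, all named rows kept, a covariate of Y-linked genes and leaving out each array. Leaving out the 2 arrays of narrowest range and averaging the 2 most alike arrays were chosen after seeing the data. The most alike arrays were B;p38α CD45+ replicates 1 and 2. Figures used matplotlib 3.10.9 in Python 3.11.15.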

Additional observations from a re-analysis of the deposited data

Results flagged for a closer look

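Eda2r in B complete replicate 1 stood apart from its group at 7.73, where the other 4 arrays lay between 8.90 and 9.23. The gap was 0.782 of the group's whole range (Dixon's ratio). Each of the 9 genes and Mapk14 was looked at in the 1 group of more than 3 arrays, which gave 10 groups of values, and chance alone passes about 1 in 20. The same array was also the lowest of its group in Cdkn1a, Mdm2 and Ccng1.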

How the results depend on the processing

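With 3 to 5 arrays per group, counts of calls moved more than differences, and the cause of the moves was not tested. No difference that passed the threshold reversed its direction in any alternative. Genes called in complete tumors (0 as reported) were 27 with the replicate block and 0 to 49 when 1 array was left out, with 49 without B complete replicate 4. In CD45+ cells (0 as reported) they were 2 with other groups in the fit, 7 without dim genes, 5303 with array weights and 250 with the Y-linked covariate, and 0 to 30 when 1 array was left out, with 30 without B;p38α CD45+ replicate 3. Of the 9 genes described, 4 (Phlda3, Trp53inp1, Ccng1 and Cdkn2b) were called there with array weights. In CD45- cells (2 genes as reported) the counts were 0, 4 and 1 with other groups, array weights and the Y-linked covariate, and 0 to 4 without 1 array. Over all compartments (16 genes, 0 of the 9) they were 27 with other groups and 134 with array weights, and 11 to 86 without 1 array. Phlda3 was the 1 gene of 9 called there with the replicate block (1.14, adjusted p 0.0443) and with array weights (1.01, adjusted p 0.0227), and 0 to 1 were called without 1 array. Between CD45+ and CD45- cells (2372 genes, 1 of 9) array weights gave 4275 genes and 2 of 9, other groups in the fit 0 of 9, and leaving out 1 array 1 to 2 of 9. Between CD45- cells and complete tumors (2479 genes, 0 of 9) the replicate block gave 1484 genes, leaving out 1 array 1459 to 2990 genes and 0 to 1 of 9, and both array weights and the arrays of narrowest range left out 1 of 9, Sesn2. Between CD45+ cells and complete tumors (5037 genes, 3 of 9) array weights gave 7769 genes and 5 of 9. The interaction had 0 to 1 genes without 1 array. Same-numbered arrays did not deviate together in general: their correlations ran from -0.57 to 0.36, so the numbers were not taken to pair samples and the replicate block is given only here.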
